A study of Mus musculus with 15 samples.

Results

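The pixels described here are those of the developing liver in sections of mouse embryos at embryonic day 11 and 12 (E11 and E12). A pixel is the crossing of barcoded microfluidic channels over a tissue section, and every transcript captured there carries that pixel's barcode pair. A pixel was counted as liver when it met 3 conditions: a total of 0.1 or more of the 95th percentile (taken over the pixels of that library), 5 or more counts of Afp, Alb, Apoa1, Apoa2 and Ahsg together, and 50 or more counts of these genes per 10000 of its own. By this rule 636 of 6673 tissue pixels in 4 libraries were liver pixels, of 17046 tissue pixels in the 11 transcript libraries of the series.

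The 4 libraries were E11 25 µm replicates 1 and 2, E11 10 µm replicate 2 and the single E12 library at 50 µm, where the length is the pixel width. Per-library values below follow that order. The labels name the organism, the stage and the pixel width, and give no genotype, strain or treatment. They do not say whether sections came from separate embryos, so p-values here measure only the spread between these sections. Stage and pixel width differ together, and the E12 section is 1 library, so stage, width and section cannot be told apart.

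The embryonic liver is a bud of foregut endoderm whose hepatoblasts, the bipotent precursors of hepatocytes and bile duct cells, already secrete plasma proteins such as alpha-fetoprotein and albumin. At the same stages it is colonised by blood progenitors and becomes the main site of definitive red cell formation, with erythroblasts that mature around macrophages, megakaryocytes and a specialised sinusoidal endothelium. Red cells made earlier in the yolk sac carry mainly embryonic beta-like globins, whereas the definitive cells made in the liver carry adult beta globins.

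The promoters of Afp and Alb, which helped to choose the pixels, and of Fga, the fibrinogen alpha chain that did not, are shown because the liver pixels are defined by secreted proteins of this kind. Each run is the 250 bases before the start annotated in RefSeq, on the plus strand of GRCm38.p6: Afp at chr5:90490464-90490713, Alb at chr5:90460620-90460869 and Fga at chr3:83025903-83026152. Capitals mark matches to an HNF1 motif (GTTAATNAT) or a C/EBP motif (TTNNGNAAT) on either strand.
Afp: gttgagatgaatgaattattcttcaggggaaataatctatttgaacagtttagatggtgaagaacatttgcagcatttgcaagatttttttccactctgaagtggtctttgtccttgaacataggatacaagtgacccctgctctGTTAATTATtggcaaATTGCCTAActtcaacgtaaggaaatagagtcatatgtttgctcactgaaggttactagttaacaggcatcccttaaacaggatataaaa
Alb: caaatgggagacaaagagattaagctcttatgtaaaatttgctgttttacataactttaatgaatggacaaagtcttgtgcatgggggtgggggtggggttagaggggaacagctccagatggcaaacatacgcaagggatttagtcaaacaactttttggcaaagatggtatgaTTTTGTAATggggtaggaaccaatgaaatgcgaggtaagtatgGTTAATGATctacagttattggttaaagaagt
Fga: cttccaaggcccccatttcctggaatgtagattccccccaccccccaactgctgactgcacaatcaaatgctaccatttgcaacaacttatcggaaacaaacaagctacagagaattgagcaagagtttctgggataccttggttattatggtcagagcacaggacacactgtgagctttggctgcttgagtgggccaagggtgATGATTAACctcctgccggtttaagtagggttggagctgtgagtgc
Afp and Alb each hold 1 match to both motifs, and Fga holds 1 to the HNF1 motif. The Fga position given further below, from GENCODE, starts within the run shown here and before this match. Of the 76 genes of the secreted-protein lists used below, 55 matched a RefSeq entry, with 62 promoter windows of 300 bases. The HNF1 motif was in 6.45% of these windows against 0.801% of all 32851 windows, and the C/EBP motif in 21.0% against 11.5%. The FOXA motif (TGTTTAC) was in 8.06% against 3.65%, and the HNF4 motif (CAAAGTCCA) in none against 0.475%. A match describes the letters of these windows and shows no binding.

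Liver pixels made up 4.52% of tissue pixels in E11 25 µm replicate 1 (77 of 1704), 5.45% in replicate 2 (82 of 1504), 12.9% in E11 10 µm replicate 2 (249 of 1930) and 14.9% at E12 (228 of 1535). Their area was 0.0481, 0.0513, 0.0249 and 0.570 mm² in turn. In both E11 25 µm sections nearly all of them formed 1 touching group, of 74 and 80 pixels. At E12 the largest group held 165 pixels and the next 38, whereas in the E11 10 µm section the liver pixels were scattered over 17 groups, the largest of 87. The share of a liver pixel's grid neighbours that were liver pixels too was 61.3%, 72.5%, 48.4% and 77.6%. The map of liver pixels shows these shapes.

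**Figure D1:**
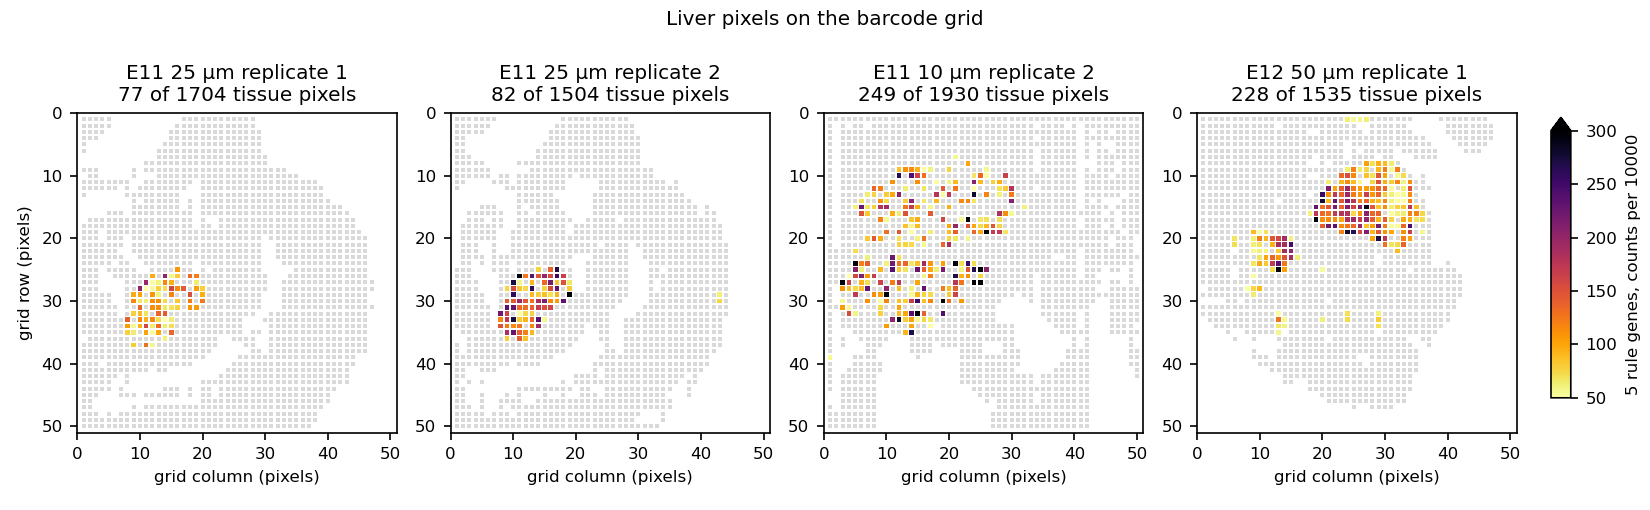
Tissue pixels of the 4 libraries in grid rows and columns, with liver pixels coloured by the rule genes' counts per 10000 and other tissue pixels in grey. Liver pixels form mainly 1 compact patch in each E11 25 µm section, a large and a smaller patch at E12, and scattered patches in the E11 10 µm section.

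The 2 E11 25 µm sections shared 1386 tissue grid positions, which is 81.3% and 92.2% of their tissue pixels, and 55 liver positions, 71.4% and 67.1% of their liver pixels. The labels do not say whether they come from 1 embryo, and counts of changed genes with both summed as 1 sample are given with the alternatives at the end. None of the other 7 transcript libraries held a pixel that met the rule. In E11 10 µm replicate 1, 0 of 1636 tissue pixels passed, and its highest pixel reached 49.9 per 10000. A count of 0 allows a share of up to 0.183% if pixels are independent draws, which touching pixels of 1 section are not. That limit says nothing about other sections. The 6 E10 libraries gave between 5 and 72 counts of the rule genes in all their tissue pixels, and no pixel above 26.5 per 10000.

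Liver pixels were deeper than the others. The median total of liver pixels was 5115, 6494, 2093 and 4141 counts, against 2456, 4151, 1011 and 3437 in other tissue pixels. This is a mean log2 ratio of 0.756 ± 0.377 (SD, n = 4, higher in 4 of 4 libraries). The exact sign-flip permutation test over libraries gave p = 0.13, two-sided, the smallest that 4 libraries allow. The rule's minimum count of its own genes can keep shallow pixels out of the liver class but not out of the other class. The test therefore cannot separate deeper liver tissue from the choice of pixels. Above the rule level, this minimum left out 2 pixels in the E11 10 µm library and 0 in each of the others. At a tissue threshold of 0.2 the mean log2 ratio was 0.492. The part of the rule in this ratio was not tested. Liver pixels summed to 378153, 603902, 589515 and 1222729 counts. In such sums of pixels, fewer cells of a type and less RNA per cell cannot be told apart, and 1 pixel can hold several cells of different types or part of one.

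The genes that chose the pixels are described without a test. Together they made up 98.4, 149, 123 and 138 per 10000 counts in liver pixels and 3.32, 2.83, 10.4 and 8.17 in other tissue pixels, and liver pixels held 70.5%, 81.8%, 76.4% and 79.6% of all their counts. Afp, the fetal counterpart of albumin, stood at 6439, 11650, 9840 and 8483 CPM (counts per 1000000 counts of the same pixels) in liver pixels and at 241, 226, 780 and 478 CPM outside. Alb itself stood at 497, 811, 582 and 2798 CPM, so that E12 was above all 3 E11 libraries, with 23.7, 21.9, 57.6 and 189 CPM outside.
Ahsg, which encodes the mineral-binding fetuin-A, was at 18.5, 11.6, 0 and 286 CPM in liver pixels, again highest at E12. Apoa1 and Apoa2, the main proteins of high-density lipoprotein, went different ways between stages. Apoa1 was at 727, 573, 375 and 1035 CPM, and Apoa2 at 2158, 1876, 1518 and 1174 CPM, so E12 was the highest library for the former and the lowest for the latter.

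The lowest members lay at 50.9, 50.8, 50.0 and 50.3 per 10000, and the highest non-members with enough counts at 49.8, 48.6, 49.7 and 49.9. Within 40 to 60 per 10000 there were 10, 3, 28 and 25 members and 9, 8, 27 and 33 non-members, so the E11 10 µm and E12 libraries had the most pixels near the threshold. In the E11 10 µm library 2 pixels above the level had too few counts, the higher of them at 85.0 per 10000.

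Next, liver pixels were compared with the other tissue pixels of the same section over all genes except the 5 of the rule. Of 13039 genes tested, 1349 were higher (10.3%) and 1692 lower (13%) in liver pixels, by edgeR's quasi-likelihood test with the library as block and a Benjamini-Hochberg adjusted p under 0.05. The median log2 fold change of all genes tested was -0.02. These genes are other transcripts of pixels that were chosen by 5 liver genes, so that secreted liver proteins accompany the choice. Among the genes with the largest rises were Apob, Lect2, Itih2, Spp2, Fgb, Serpind1, Kng1, Apom, Fga and Serpina6, all secreted proteins of the liver. The largest falls were in Pgam2, Myh6, Msx1, Ttn, Lix1, Hoxb9, Myh7, Lef1, Myl7 and Myl3, which are mostly genes of muscle and of limb or tail patterning. Without E11 10 µm replicate 2, whose liver pixels were the most scattered, 1539 genes were higher and 1690 lower. The other pixels of that section held little neural and much heart tissue: Pax6, of the neural tube, was at 259, 138, 2.79 and 10.04 CPM outside the liver, and Myh6, the atrial myosin, at 345, 243, 1225 and 197 CPM.

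**Figure D2:**
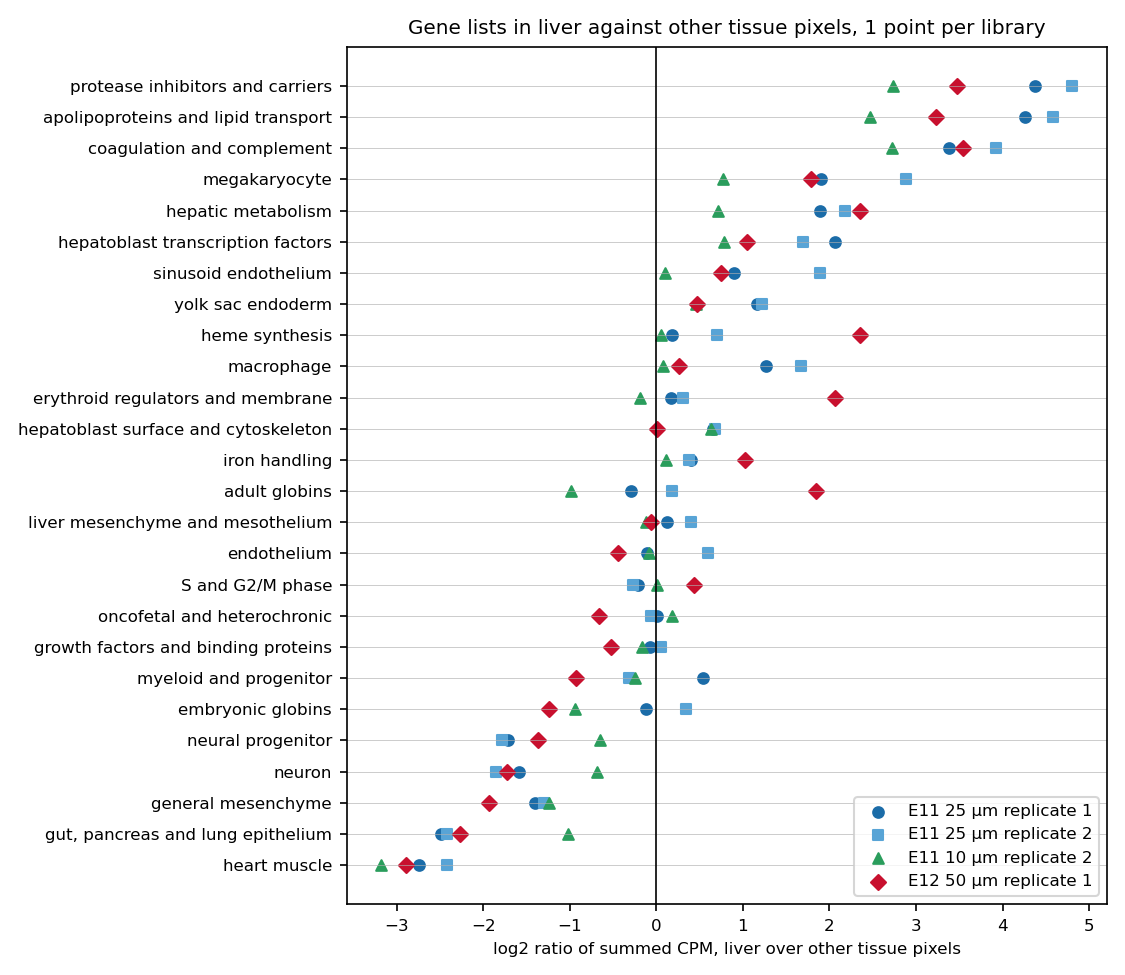
Log2 ratio of the summed CPM of each gene list, liver over other tissue pixels, with 1 point for each library. The protease inhibitor list lies between 2.73 and 4.81, the E12 point stands apart to the right for heme synthesis, erythroid genes and adult globins, and heart, neuron and general mesenchyme lists lie below 0 in every library.

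Hepatoblast transcription factors were mostly higher in liver pixels. Of 20 listed, 15 passed the filter on low counts and were tested, and 10 of these rose, beside 10.3% of all genes tested. None was lower, and the median log2 fold change was 1.77. Hnf4a, the nuclear receptor that drives hepatocyte identity, was at 74.0, 53.0, 27.1 and 40.9 CPM in liver pixels and at 1.71, 0.565, 7.43 and 3.60 CPM outside. The 2 sets of values did not overlap, and the log2 fold change was 4.28 ± 0.72 (SE; edgeR adjusted p = 0.00787). Creb3l3, a hepatic activator of lipid and iron genes, changed by 4.60 ± 0.38 (edgeR adjusted p = 2.4e-07), from 1.49 to 2.84 CPM outside to 20.4 to 61.3 CPM in liver pixels.
Foxa3, a pioneer factor of endoderm, rose by 3.83. Cebpa, of the C/EBP family, rose by 3.29, Nr5a2, a regulator of bile acid genes, by 3.09, and Hhex, needed for the liver bud to grow, by 2.67 on the log2 scale. Prox1, which hepatoblasts need to migrate out of the bud, was at 60.8, 131, 100.1 and 70.3 CPM against 17.7, 33.5, 29.3 and 32.6 CPM, a log2 change of 1.77 (edgeR adjusted p = 3.98e-06). Onecut2, a partner of Onecut1 in early liver growth, rose by 1.75 and Foxa1 by 1.73.
The other 5 factors tested did not pass. Among them Gata4 had a log2 change of 0.31 (edgeR adjusted p = 0.661), Gata6 0.27 (0.379), Foxa2 0.66 (0.266) and Tbx3 -0.03 (0.965). In the E11 10 µm section Gata4 was at 25.4 CPM in liver pixels and 66.4 CPM outside, beside heart genes that were also high there.

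Surface and cytoskeletal genes of hepatoblasts followed. Of 13 tested, 10 rose and 1 fell, beside 10.3% of all genes tested higher and 13% lower. The median log2 change was 1.5. Dlk1, a surface protein used to isolate hepatoblasts, was at 629, 763, 1157 and 410 CPM in liver pixels and 180.0, 182, 526 and 226 CPM outside. Each section was higher within its liver, though the E11 10 µm level outside exceeded the E12 level inside, and the log2 change was 1.59 ± 0.19 (edgeR adjusted p = 0.000846). The simple-epithelium keratins Krt8 and Krt18 rose by 1.28 and 1.31, the gap junction gene Gjb1 by 4.25, the HGF receptor Met by 2.00 and E-cadherin, Cdh1, by 1.5. Cdh2, N-cadherin, was the member that fell (log2 -0.52, edgeR adjusted p = 0.0132), a call lost without either E11 25 µm replicate. Gpc3, a proteoglycan known as an oncofetal liver protein, was at 378, 629, 473 and 494 CPM in liver pixels and 371, 615, 497 and 846 CPM outside (log2 -0.08, edgeR adjusted p = 0.691). Epcam, which marks early hepatoblasts and other epithelia, changed by -0.08 (edgeR adjusted p = 0.936).

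**Figure D3:**
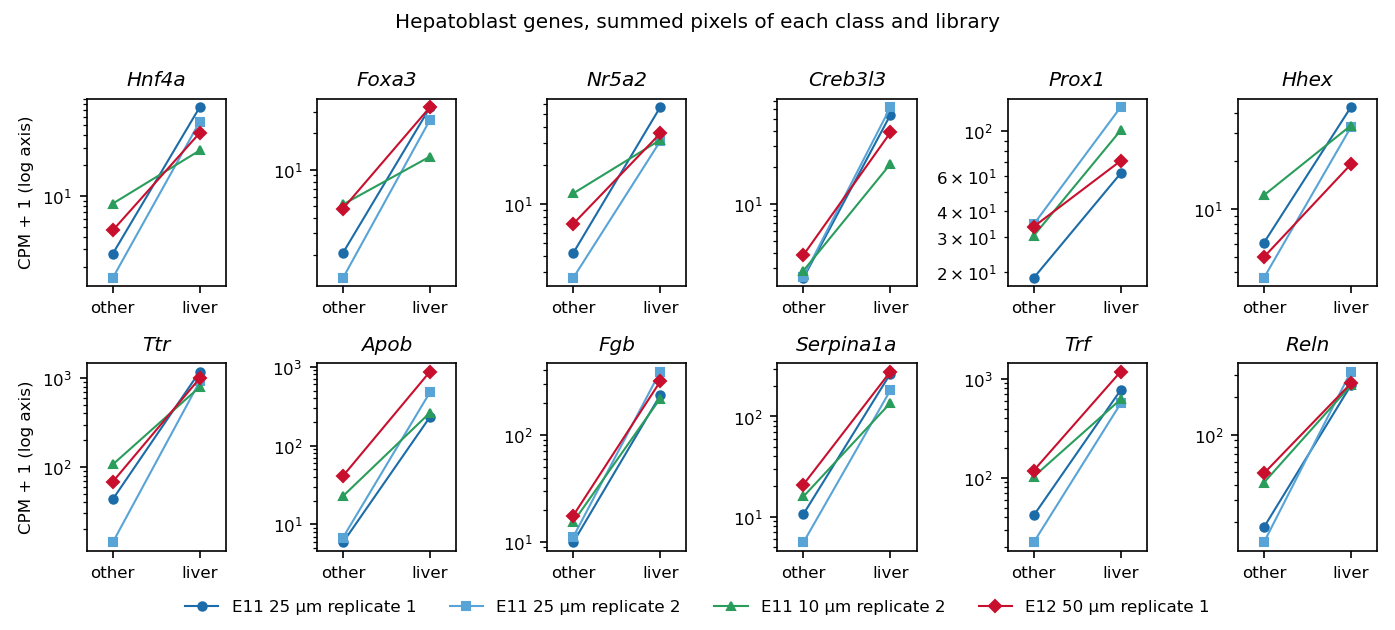
CPM plus 1, on log axes, of 12 hepatoblast genes in summed liver and other tissue pixels of each library; lines join the classes of 1 section. All lines rise toward the liver pixels, and that of the E11 10 µm section starts highest and rises least for Hnf4a, at 7.43 CPM outside and 27.1 CPM inside.

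The 3 lists of secreted proteins had the largest median changes of the lists used. Of apolipoproteins and lipid transport genes, 16 of 17 tested rose with a median log2 change of 4.04. Of protease inhibitors and carriers, 16 of 17 rose (median 4.17), and of coagulation and complement genes 20 of 22 (median 4.12). No tested member of these lists fell. Of all genes tested 10.3% were higher and 13% lower. Without the E12 library 8, 10 and 17 members of these lists were called higher, and without E11 25 µm replicate 2 the apolipoprotein count was 9.

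Apob, the structural protein of very-low-density lipoprotein, was at 230, 475, 261 and 869 CPM in liver pixels and at 4.91, 5.80, 21.8 and 40.2 CPM outside. No outside value came near an inside one, and the log2 change was 5.06 ± 0.59 (SE; edgeR adjusted p = 0.0138). Its call was lost without E11 25 µm replicate 1 and without the E12 library. Ttr, the transthyretin that carries thyroid hormone, was at 1182, 917, 794 and 995 CPM against 42.2, 13.2, 105.5 and 67.1 CPM. It differed by a log2 of 4.51 ± 0.72 (edgeR adjusted p = 0.0322), a call lost when either E11 25 µm library or the E12 library was left out. Rbp4, its retinol-carrying partner, was close to it at 4.30, and Apom and Apoe changed by 4.62 and 3.15. The call of Rbp4 was lost in the same 3 cases as that of Ttr, and those of Apom and Apoe when any 1 of the 4 libraries was left out.
Mttp, which loads lipid onto Apob, rose by 2.68. Fabp1, the hepatic fatty acid binding protein, was at 5.29, 18.2, 23.7 and 51.5 CPM in liver pixels, highest at E12, against 0.427, 1.13, 4.18 and 4.93 CPM outside. Scp2, a sterol carrier of many tissues, was the tested member that did not pass (log2 0.45, edgeR adjusted p = 0.107).

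Trf, the iron carrier transferrin, was at 767, 561, 617 and 1178 CPM in liver pixels and 40.7, 21.4, 101.7 and 117 CPM outside (log2 change 3.83, edgeR adjusted p = 0.0161). Itih2, a hyaluronan-binding inhibitor, reached 542, 813, 874 and 761 CPM against 16.0, 13.01, 87.8 and 39.8 CPM, a log2 change of 4.74 ± 0.60. Serpina6, which carries corticosteroids, rose by 4.59 and Ambp, the precursor of alpha-1-microglobulin and bikunin, by 4.52. The calls of Trf and Itih2 were lost without E11 25 µm replicate 1 and without the E12 library, and those of Serpina6 and Ambp without either E11 25 µm replicate and without the E12 library. The 5 alpha-1-antitrypsin copies Serpina1a to Serpina1e rose by 3.92 to 4.81, but they are near-identical and reads could be split among them in ways not stated. Cp, ceruloplasmin, had 0 counts in liver pixels and 40 outside, so it was at least 1.94-fold lower there, with 3 counts taken as the limit of a count of 0. Genes of the acute phase were sparse, with Hp at 13.2, 0, 1.70 and 1.64 CPM and too few counts for a test.

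The fibrinogen genes lie together on chromosome 3 (Fgg at 83007724 to 83015049, Fga at 83026076 to 83033627, Fgb at 83040141 to 83049863 in GRCm38). Fgb was at 233, 387, 217 and 313 CPM in liver pixels and 8.96, 10.2, 14.4 and 16.7 CPM outside, a 25.8-fold difference (log2 4.69 ± 0.19, edgeR adjusted p = 3.51e-10). The 4 liver values were close to each other and far above the rest. Fga rose by 4.62 and Fgg by 4.40. Prothrombin, F2, rose by 4.15, antithrombin, Serpinc1, by 4.09, plasminogen, Plg, by 4.36 and the complement protein C3 by 4.35. Vtn, vitronectin, also made outside the liver, was at 410, 280, 158 and 220 CPM against 105.4, 61.4, 31.6 and 19.9 CPM and rose by 2.60. Pros1 and Masp1 did not pass (log2 0.38 and 0.47, edgeR adjusted p = 0.511 and 0.743).

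Metabolic enzymes were less uniform. Of 34 listed, 17 were tested and 12 rose, beside 10.3% of all genes tested. None fell, and the median log2 change was 3.20. Ass1, of the urea cycle, was at 79.3, 36.4, 23.7 and 13.1 CPM in liver pixels, lowest at E12, against 4.48, 1.27, 4.18 and 1.52 CPM outside (log2 3.84, edgeR adjusted p = 3.98e-06). Otc, of the same cycle, rose by 3.99. Hpd, of tyrosine breakdown, had 22 counts in liver pixels and 2 outside, a ratio of 75.6 (95% exact interval 18.6 to 663, counting error only). Arg1, the last enzyme of the urea cycle, was at 2.64, 0, 3.39 and 1.64 CPM inside and 14.1, 9.33, 10.2 and 1.71 CPM outside (log2 -1.78, edgeR adjusted p = 0.0673). Cps1, Fbp1, Cyp7a1 and Cyp8b1, genes of the mature hepatocyte, had at most 6.62 CPM in any library's liver pixels.

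Growth factors and their binding proteins were mixed, beside 10.3% of all genes tested higher and 13% lower. Of 12 tested, 2 rose (Igfbp1 by 3.72 and Kitl, the ligand of Kit on blood progenitors, by 0.88) and 3 fell (Bmp4 -2.59, Igf1 -1.65 and Igfbp2 -1.28). Igfbp2 was not called without E11 25 µm replicate 1, nor Kitl without replicate 2. Igf2, the main fetal growth factor, was at 500, 763, 840 and 1021 CPM inside and 483, 712, 979 and 1377 CPM outside, with a log2 change near 0.00 (edgeR adjusted p = 0.991). Thpo, the megakaryocyte hormone, had 7.93, 3.31, 0 and 4.09 CPM, and Epo 4 counts in liver pixels and 1 outside.
Of iron genes 3 of 8 tested rose, beside 10.3% of all genes tested. The 3 were Fth1, the ferritin heavy chain, by 0.68, the iron exporter Slc40a1 by 1.57 and the metallothionein Mt2 by 2.19. Without E11 25 µm replicate 1 or 2 a single one was called. The call of Slc40a1 was also lost without E12. Hfe2, the hemojuvelin gene of muscle and adult liver, had 0 counts in liver pixels and 88 outside and was at least 4.27-fold lower.

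Blood genes in liver pixels differed between the 2 stages, and the E12 library carried most of it. Adult globins, the alpha genes Hba-a1 and Hba-a2 and the beta genes Hbb-bs and Hbb-bt, are pairs of near-identical copies whose reads may be shared. Hbb-bt, on chromosome 7 from 103812524 to 103813996, was at 153, 122, 122 and 25870 CPM in liver pixels and 174, 123, 204 and 4296 CPM outside. The E12 liver pixels stood far above the E11 ones, while within E11 the 2 classes overlapped. Hbb-y, the embryonic beta-like globin from 103851749 to 103853216, was at 7616, 7988, 4777 and 7687 CPM inside and 8225, 6095, 9133 and 18270 CPM outside. At E12 it was lower in liver pixels than in the rest, and in the E11 25 µm sections it was on either side.
Adult genes made up 38.8%, 34.4% and 35.6% of globin counts in E11 liver pixels and 41.6%, 37.0% and 36.3% outside, a mean difference of -2.05 ± 1.22 percentage points (SD, n = 3). At E12 they made up 94.9% inside and 68.9% outside, a difference of 26.1 points. Over all 4 libraries the difference was 4.99 ± 14.1 points (higher in 1 of 4; exact sign-flip permutation p = 1.0, two-sided, smallest possible 0.13). For the beta genes alone the adult share was 3.74%, 3.30%, 4.68% and 87.3% inside and 4.13%, 3.79%, 3.85% and 32.2% outside. Globins took 1.83%, 1.81%, 1.28% and 18.1% of counts in liver pixels and 2.06%, 1.47%, 2.46% and 6.88% outside (exact permutation p = 0.75 for the log2 ratio).

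None of the 4 adult or 3 embryonic globins passed edgeR's test of liver against other pixels. None had an unadjusted p under 0.05, and DESeq2 called none. Some alternatives did call embryonic globins lower in liver pixels: all 3 in pixels thinned to at most 1000 counts, and 1 without E11 25 µm replicate 2 and with no filter on low counts. The liver change of the E12 section was then tested against that of the E11 sections, a difference in which stage, pixel width and section cannot be told apart. The test gave 99 genes with a higher change at E12 (0.697% of 14208 tested) and 19 with a lower one (0.134%), and the median over all tested genes was 0.06. The single E12 library is taken to vary like the E11 libraries in this fit. Hbb-bt was called (log2 difference 3.14, edgeR adjusted p = 5.3e-07), while Hbb-bs was not (3.04, 0.201). Hba-a1 and Hba-a2 differed by 2.22 and 2.16 (0.731 and 0.767).

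Erythroid regulators and membrane genes showed 2 patterns. Against the other tissue, 12 of 33 tested rose in liver pixels, beside 10.3% of all genes tested. None fell, and the median log2 change was 1.72. Without the E12 library 9 were called higher and 3 lower, and without E11 25 µm replicate 2, 8 were called higher. Gata1, the master regulator of red cells and megakaryocytes, was at 47.6, 39.7, 50.9 and 89.1 CPM in liver pixels and 3.41, 2.69, 24.6 and 6.63 CPM outside. All inside values exceeded all outside values, with a log2 change of 3.17 ± 0.56 (edgeR adjusted p = 0.0079), a call lost without E11 25 µm replicate 2. Its partner Zfpm1 rose by 1.68, Klf1, the activator of adult beta-globin, by 2.86, Nfe2 by 2.71, Gfi1b by 2.31 and the erythropoietin receptor Epor by 2.07. The call of Klf1 was lost without either E11 25 µm replicate and with these sections summed. Myb, needed for definitive progenitors, rose by 2.12 and Kit by 0.99.

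The second pattern was a change at E12 in genes of terminal red cell maturation. Of 34 tested, 15 had a larger liver change at E12, beside 0.697% of all genes tested, and none a smaller one. Slc4a1, the anion exchanger band 3, was at 60.8, 34.8, 30.5 and 830 CPM in liver pixels and 97.5, 50.0, 67.8 and 142 CPM outside. In all 3 E11 sections it was lower inside than outside, and at E12 higher, with a log2 difference of 3.55 ± 0.30 (edgeR adjusted p = 1e-13).
Rhd, an Rh protein of the red cell membrane, was at 10.6, 18.2, 3.39 and 268 CPM inside, against 10.7, 9.9, 6.97 and 21.0 CPM outside (difference 3.64, edgeR adjusted p = 2.2e-06). Rhag, its partner, differed by 3.31, spectrin beta, Sptb, by 3.50, and Slc25a37, which brings iron into mitochondria, by 3.45. Tfrc, the transferrin receptor by which erythroblasts take up iron, was at 45.0, 190.4, 125 and 912 CPM inside and 49.7, 117, 86.9 and 113 CPM outside (difference 2.79, edgeR adjusted p = 4.61e-11).

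Heme synthesis genes moved the same way. None of 9 was called in liver against other pixels over both stages by edgeR (1 at an unadjusted p under 0.05, and 2 called by DESeq2). A larger change at E12 was called for 6 of 9, beside 0.697% of all genes tested. Alas2, the erythroid enzyme of the first step, was at 37.0, 13.3, 13.6 and 377 CPM in liver pixels and 57.0, 30.7, 55.3 and 88.3 CPM outside. It was below the outside level in each E11 section and above it at E12 (difference 3.57, edgeR adjusted p = 1.16e-09). Alas1, the copy used by other tissues, differed by -0.85 (edgeR adjusted p = 0.922). Alad and Fech, later steps of the pathway, differed by 2.58 and 2.30.

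**Figure D4:**
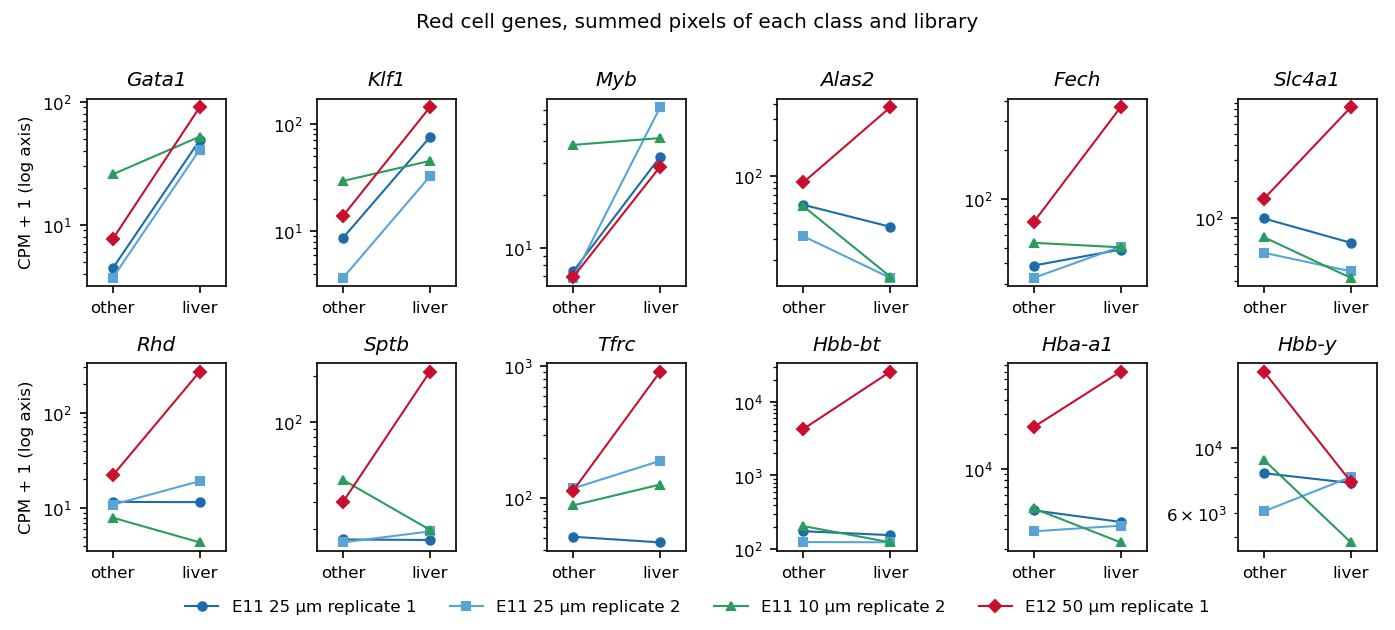
CPM plus 1, on log axes, of 12 globin, erythroid and heme genes in liver and other tissue pixels of each library, with lines joining the classes of 1 section. The E12 line rises steeply for Hbb-bt, Slc4a1 and Alas2 while the 3 E11 lines fall or stay near level, and for Hbb-y it falls from 18270 to 7687 CPM.

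The cell cycle list differed little. Of 24 genes of S and G2/M phase, 2 were called higher in liver pixels (Aurka by 0.52 and Birc5 by 0.46), a smaller share than the 10.3% of all genes, and none without the E12 library. Aurka fell short of the threshold in 12 of 17 alternatives and Birc5 in 8. Beside 0.697% of all genes tested, the change at E12 was larger for 3 genes of this list. One of these was Mki67, a marker of cycling cells, at 595, 851, 562 and 1298 CPM inside and 688, 873, 572 and 601 CPM outside (difference 1.44, edgeR adjusted p = 2.86e-07). The others were Rrm2 and Mcm3, at 1.39 and 1.13.
In the opposite direction, the genes named with a smaller liver change at E12 were Plod2 (-2.04), Serpine2 (-2.04), Pde5a (-2.0), Mef2c (-1.75) and Bin1 (-1.70), with edgeR adjusted p from 0.00107 to 0.0491. Mef2c, a factor of muscle and endothelium, was at 95.2, 102.7, 89.9 and 66.3 CPM inside and 61.6, 56.1, 85.5 and 181 CPM outside, so the E12 outside level stood apart. Plod2, Serpine2 and Mef2c were not called with the E11 25 µm sections summed, and Plod2 not without E11 25 µm replicate 2. All but Bin1 were lost with DESeq2, which called 33 genes higher and 2 lower. Of liver genes proper, Vtn alone among the coagulation genes differed between stages (1.56, edgeR adjusted p = 0.000678), and no tested difference of an apolipoprotein, protease inhibitor or hepatoblast factor was called.
The neural genes Pax6 and Hes5 were called with a larger change at E12 as well (4.67 and 3.07, edgeR adjusted p = 0.000348 and 0.0407). Their liver levels were at most 15.9 CPM, and their outside levels were far lower at E12 than in the E11 25 µm sections. The part that the makeup of the other pixels has in these differences was not tested.

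Megakaryocyte genes rose in liver pixels: 12 of 15 tested were called higher, beside 10.3% of all genes tested. None was lower, and the median log2 change was 2.13. Without the E12 library 7 were called. Gp1bb, of the platelet receptor for von Willebrand factor, was at 76.7, 94.4, 83.1 and 29.4 CPM inside and 19.2, 13.4, 43.2 and 10.2 CPM outside, a log2 change of 1.95 ± 0.27 (edgeR adjusted p = 0.000105). Its E12 liver level was the lowest of the 4 and below the E11 10 µm level outside. Pf4, platelet factor 4, was at 373, 917, 809 and 218 CPM against 89.2, 80.9, 478 and 36.4 CPM, but missed the threshold (log2 2.36 ± 0.61, edgeR adjusted p = 0.0921). Gp9 rose by 2.41 and Itga2b by 2.53 (edgeR adjusted p = 0.0496), the latter not called without E11 25 µm replicate 1 or without E12.

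Of 15 macrophage genes tested, 7 rose, beside 10.3% of all genes tested, and none fell, with a median of 1.11. This count was 2 without E11 25 µm replicate 1, 1 without replicate 2 and 4 without E12, so it rests on each of these sections. Mrc1, the mannose receptor also present on sinusoid endothelium, was at 18.5, 44.7, 22.1 and 40.9 CPM inside and 9.17, 11.2, 13.9 and 31.7 CPM outside (log2 1.14, edgeR adjusted p = 0.00954). Vcam1, which binds erythroblasts to macrophages, rose by 1.10. Genes of the later erythroblastic islands and Kupffer cells, Cd163, Cd5l, Timd4 and Adgre1, had at most 9.0 CPM in liver pixels.
Of the sinusoid genes 4 of 6 tested rose, beside 10.3% of all genes tested. Stab2, a scavenger receptor of the sinusoid, was at 29.1, 51.3, 23.7 and 28.6 CPM against 4.48, 2.69, 14.4 and 4.55 CPM (log2 2.73 ± 0.49, edgeR adjusted p = 0.00198), and Oit3 and Lyve1 rose by 3.14 and 1.57, Lyve1 not without E12. Genes of all endothelium did not follow, with 1 of 11 higher (Egfl7, 0.64, not called without either E11 25 µm replicate) and a median of 0.06. That count is near the 10.3% of all genes tested that were higher. Pecam1 was at 39.7, 24.8, 40.7 and 22.9 CPM inside and 37.7, 20.4, 34.8 and 44.3 CPM outside.
Among myeloid and progenitor genes 2 of 9 rose and 2 fell, beside 10.3% of all genes tested higher and 13% lower. Hlf, known from blood stem cells and hepatocytes, rose by 2.64 and Coro1a by 1.19 (not called without E11 25 µm replicate 1), whereas Mecom fell by 2.70 and Meis1 by 0.88 on the log2 scale. Mpo, of granulocyte precursors, was at 135, 33.1, 37.3 and 34.3 CPM against 5.33, 1.41, 22.8 and 1.89 CPM, without passing (log2 3.54, edgeR adjusted p = 0.0605).

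Liver mesenchyme and mesothelium gave a mixed list, with 2 of 15 genes higher and 5 lower. Of all genes tested 10.3% were higher and 13% lower, so the count of higher genes was near the share of all genes. Reln, a secreted matrix protein made by hepatic stellate cells, was at 246, 316, 246 and 254 CPM in liver pixels and 17.3, 12.9, 40.4 and 48.1 CPM outside. All 4 inside values were far above all outside values, with a log2 change of 3.45 ± 0.47 (edgeR adjusted p = 0.0126). Colec11, a liver lectin, rose by 2.34. Des fell by 1.49 and Wt1, of the mesothelium, by 0.72 on the log2 scale, while Lhx2, needed by stellate cells, changed by 0.65 (edgeR adjusted p = 0.128).
General mesenchyme, by contrast, was lower: 12 of 13 genes tested fell and none rose, against 13% of all genes, with 7 lower without E12. Col1a1 was at 74.0, 61.3, 76.3 and 141 CPM inside and 161, 161, 259 and 448 CPM outside (log2 -1.38, edgeR adjusted p = 1.9e-06). All 14 heart muscle genes and all 12 neuron genes fell as well. With 1 library left out, 13 heart genes and 8 to 12 neuron genes were called lower, and DESeq2 called 13 and 8. With no replicate block 7 and 1 were called. Myl7, the atrial myosin light chain, was at 74.0, 57.96, 239 and 37.6 CPM in liver pixels and 645, 474, 1825 and 275 CPM outside (log2 -2.85 ± 0.11, edgeR adjusted p = 3.03e-11). Heart transcripts were thus also counted in liver pixels, most in the E11 10 µm section where the level outside was highest too.

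Yolk sac endoderm makes many of the same secreted proteins, so its own markers were set beside them. Of 8 tested, 5 rose (Spink1, Pla2g12b, Slc39a5, Muc13 and Ctsz) and Lrp2 fell (log2 -1.56, edgeR adjusted p = 0.0214), with a median log2 change of 1.92. Of all genes tested 10.3% were higher and 13% lower. The calls of Muc13 and Lrp2 were lost without either E11 25 µm replicate, and that of Muc13 also without E12. The summed level of the list was 415, 316, 222 and 294 CPM in liver pixels and 186, 136, 161 and 212 CPM outside, higher inside in all 4 libraries. The endocytic receptor genes Amn and Cubn had too few counts on either side for a test: Amn had 2 in liver pixels and 11 outside, and Cubn 6 and 12. The part of yolk sac endoderm in the rise of liver genes was not tested. Of gut, pancreas and lung epithelium, none of 7 genes rose and 4 fell (Nkx6-1, Shh, Sox9 and Osr1; Shh not without E11 25 µm replicate 1), with Cdx1 at 0 in the liver pixels of every library. None of these 7 had an unadjusted p under 0.05 in the upward direction, and DESeq2 called none higher. The share of all genes tested that were lower was 13%.
Of oncofetal genes, 4 of 12 tested rose and 3 fell, beside 10.3% of all genes tested higher and 13% lower. Trim71, an RNA-binding protein of early development, rose by 1.22 and Arid3a by 0.99. Zbtb20, which represses Afp in the adult liver, was at 21.2, 24.8, 17.0 and 51.5 CPM inside and 83.2, 139, 46.4 and 194 CPM outside (log2 -1.84 ± 0.20, edgeR adjusted p = 4.46e-06). It was lower inside in all 4 sections.

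Levels were then followed by distance from the nearest liver pixel, counted in grid steps, as a description. Pixels were 25, 25, 10 and 50 µm wide in the 4 libraries, so a step is not the same length in each. Protease inhibitor genes fell from 33.8 to 44.5 per 10000 counts in liver pixels to 4.99 to 9.88 at 1 step and 1.03 to 2.89 at 5 steps or more, over the 4 libraries. Coagulation genes went from 12.9 to 19.9 through 3.11 to 5.81 to 1.03 to 1.62. So in each library the step out of the liver pixels was the largest drop, and the first ring stayed above the far tissue. The rule helps to set this drop, since pixels of the first ring are neighbours that failed it. These lists also went with the rule genes pixel by pixel, so the drop does not show how sharp the liver border is.
Blood genes differed in reach. Megakaryocyte genes stood at 10.1, 17.6, 15.8 and 6.09 per 10000 in liver pixels and at 10.3, 10.3, 17.9 and 3.04 in the first ring, as high as inside in 2 of the 4 libraries. At E12 the erythroid list went from 89.2 in liver pixels to 30.2 at 1 step and 18.9 at 5 or more. Embryonic globins ran the other way. They stood at 111, 117, 81.6 and 90.4 in liver pixels and at 245, 172, 121 and 226 in the first ring, higher there in all 4 libraries, and at E12 they stayed at 207 or more at every distance outside.

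**Figure D5:**
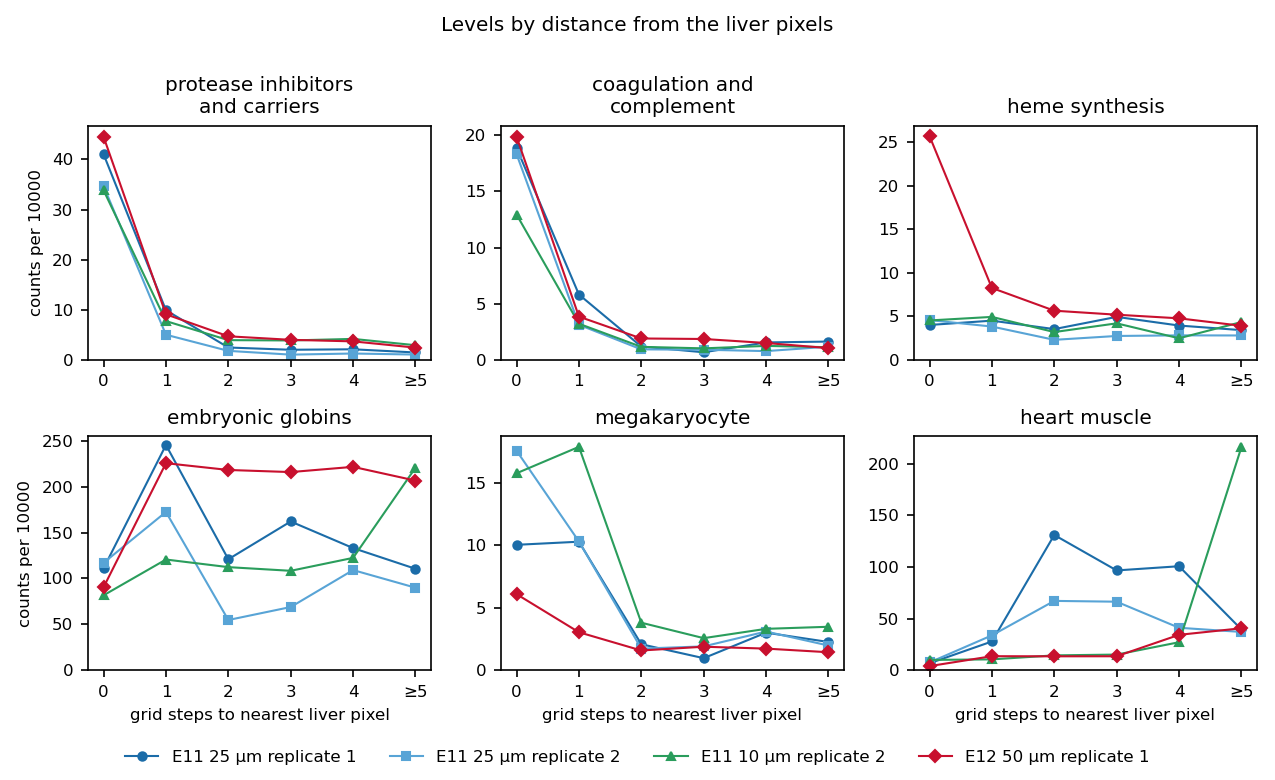
Counts per 10000 of 6 gene lists against the grid distance from the nearest liver pixel, with 1 line for each library. The length of a grid step differs with the pixel width. Protease inhibitor and coagulation genes drop at the first step, heme synthesis stands out at E12, and heart genes peak 2 or more steps away.

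Within the liver, pixels whose 4 grid neighbours, along rows and columns, were all liver pixels (core: 17, 23, 14 and 101) were compared with the others (edge). Of 7601 genes tested, 6 were higher in the core (0.0789%) and 4 lower (0.0526%) by edgeR's quasi-likelihood test, with a median log2 change of -0.02. Ptn, a heparin-binding growth factor of mesenchyme and nerve, was at 43.3, 85.2, 94.2 and 90.01 CPM in the core and 140.0, 183, 217 and 304 CPM at the edge. All core values were below all edge values, a log2 change of -1.42 ± 0.26 (edgeR adjusted p = 0.000242). Its relative Mdk fell by 0.76 and Igf1 by 2.01 on the log2 scale, and Igfbp5 by 1.26. Higher in the core were Fech (1.06), Serinc3 (0.89), Car2, Rhd, Hbb-bs and Hbb-bt. The latter 4 did not go the same way in every library, and at E12 Hbb-bs was at 37210 CPM in the core and 16740 CPM at the edge. The calls of Fech, Serinc3 and Mdk were lost without either E11 25 µm replicate. Hepatoblast genes did not pass: Hnf4a was at 65.0, 74.6, 31.4 and 40.5 CPM in the core and 77.0, 43.2, 26.9 and 41.4 CPM at the edge. Without E12, and with DESeq2, no core gene was called (131 and 91 genes at an unadjusted p under 0.05).

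At E12 the 2 largest groups of touching liver pixels were close in some liver genes, and further apart in other liver genes and in blood genes. Alb was at 2986 CPM in the group of 165 pixels and 2474 CPM in that of 38, and Ahsg at 292 and 319 CPM. Adult globins summed to 186200 and 112500 CPM, and Hbb-y stood at 6142 and 10490 CPM. Both groups are from 1 library, so there is no test.
Pixel by pixel, the rule genes and the secreted-protein lists went together, with Spearman correlations of 0.655, 0.871, 0.723 and 0.864 over the 77, 82, 249 and 228 liver pixels. These pixels share a library and each pair of values shares the pixel's depth. Adult globins and the erythroid list gave 0.817 at E12 and 0.148, 0.088 and -0.016 in the sparser E11 counts, where a weak correlation is no finding. At E12 the adult globins of a single liver pixel ran from 222 through a median of 1390 to 3869 per 10000 counts.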

How the data were processed

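Transcripts were captured in sections of mouse embryos, and the authors deposited whole-number counts per gene and pixel, with no normalization. The submitters' processing notes name CASAVA 1.8.2 and the build GRCh38, with no role given. The aligner, the annotation, the use of strand and any collapsing of duplicate molecules are not given in the sources used here, so intervals and floors cover counting error only, and genes with near-identical or antisense partners are uncertain. Positions come from GENCODE M21 (GRCm38) and promoters from RefSeq (GRCm38.p6), for position only.

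Pixels were chosen as described above. For each library, counts were summed over liver pixels (378153 to 1222729 in all) and over other tissue pixels. The 5 rule genes were removed before library sizes were taken. Genes that pass filterByExpr were tested with edgeR 4.0.16 (R 4.3.3; TMM factors, robust quasi-likelihood fit, two-sided) with the library as a block, since both classes come from the same section. The difference between E12 and E11 is the class by stage term. Adjusted p is Benjamini-Hochberg over all genes tested, called under 0.05. Standard errors are of the log2 fold change. Single values were tested by an exact sign-flip permutation over libraries. Gene lists are described by counts and medians, with no set test. The fit of liver against other pixels, and no other fit, was also run on simulated sums with less spread than the real ones. Its outcome is not reported here. Alternatives were DESeq2 1.42.0, other size factors, no count filter, other rule and tissue thresholds, other comparison pixels, each library left out, no block and, chosen after seeing the data, E11 25 µm sections summed, the largest touching group alone and pixels thinned to 1000 counts.

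Named genes were the called genes with the largest change in each direction that moved the same way in every library, with at least 50 CPM in the higher class, and for each list the most abundant and most changed members. Other genes were named after their values were seen. The same-way condition could not be applied to the stage difference, which has 1 E12 library. The members and the lists were chosen with earlier results of these data known. Some listed genes, such as Apoa4, F9, C5 and G6pc, are not listed in these tables and were not analysed here, and results for some others are not reported here.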

Additional observations from a re-analysis of the deposited data

Results flagged for a closer look

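The liver change of 8 named genes differed between E12 and E11 by the class by stage term of edgeR's quasi-likelihood test. It was larger at E12 by a log2 of 3.64 for Rhd, 3.57 for Alas2 and 3.55 for Slc4a1, all genes of maturing red cells. It was smaller at E12 for Plod2 (-2.04), Serpine2 (-2.04), Pde5a (-2.0), Mef2c (-1.75) and Bin1 (-1.70). Leaving out E11 10 µm replicate 2 kept all 8 calls, and leaving out E11 25 µm replicate 2 lost Plod2. With the E11 25 µm sections summed Plod2, Serpine2 and Mef2c were lost, and with DESeq2 these and Pde5a.

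The adult share of globin counts in liver pixels minus that in other pixels was negative in all 3 E11 libraries and 26.1 percentage points at E12. This difference between stages was not tested. Stage, pixel width and section cannot be told apart in any of these results.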

How the results depend on the processing

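Liver against other pixels gave 1349 genes higher and 1692 lower. DESeq2 called 1094 lower, the E11 25 µm sections summed as 1 sample gave 884 higher, and pixels thinned to at most 1000 counts gave 480 higher and 742 lower. With no replicate block, that is without the pairing by section, 256 were higher and 216 lower. Leaving out 1 library gave 804 to 1539 higher and 950 to 1690 lower, the fewest without E11 25 µm replicate 2. For the difference between E12 and E11 (99 higher, 19 lower), DESeq2 gave 33 and 2, and the summed sections 43 and 4. Leaving out 1 E11 library gave 61 to 392 higher and 10 to 152 lower, the most without E11 10 µm replicate 2. For core against edge (6 higher, 4 lower), DESeq2 gave 0 and 0, no filter on low counts 0 and 1, and the summed sections 2 and 2. Leaving out 1 library gave 0 to 18 higher and 0 to 13 lower. The adult share of globin counts, 4.99 points, turned to -2.05 without E12 (-2.05 to 7.59 with 1 library left out) and was 13.8 for the beta globins alone. The log2 ratio of globin share, 0.147, turned to -0.126 at a rule level of 100 per 10000 and to -0.27 without E12 (-0.27 to 0.51 with 1 library left out), and was 0.597 with liver pixels chosen by their neighbours. The log2 ratio of median counts, 0.756, was 0.655 to 0.918 with 1 library left out and 0.492 at a tissue threshold of 0.2. The cause of these shifts was not tested, beyond the fewer samples or counts that an alternative leaves.

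Of 129 named genes called in liver against other pixels, none reversed in 2153 alternative values, and 279 fell short of the threshold. Of 43 named genes not called, 50 of 731 values passed. For the stage difference 8 of 70 values fell short, and for core against edge 19 of 32. The addition of E11 10 µm replicate 1 was not run, since 0 of its pixels passed the rule. With 1 E12 library and 4 in all, differences within the spread between sections were not detectable. Genes under about 10 CPM rest on few counts.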
